A study of Mus musculus with 13 samples.

Results

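The metallothionein genes Mt1, Mt2 and Mt3 were followed through 13 RNA-seq libraries of mouse tibialis anterior, a fast-twitch muscle of the lower hind limb. These 3 genes, of 13846 in the authors' expression sheet, were chosen by their symbols with their levels in the genotypes already known, so every comparison of them between genotypes is a description and carries no test. The groups were wild type (WT, 5 libraries), mdx (4 libraries), the dystrophin-mutant mouse used as a model of Duchenne muscular dystrophy, and mdxTG (4 libraries), mdx mice that in addition express SSPN, that is sarcospan, from a transgene; sarcospan spans the membrane within the dystrophin-glycoprotein complex. All mdxTG libraries share the mdx mutation, so by the labels the comparison of mdxTG with mdx differs by the transgene. Age, sex, the promoter and species of the transgene and the number of founder lines are missing from the sources used here. Nothing says that the libraries of a genotype came from separate animals, so SDs, SEs and p-values cover the spread of these samples only, and that spread may be technical.

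Metallothioneins are small proteins rich in cysteine that bind zinc, copper and cadmium through thiolate clusters. Mt1 and Mt2 are made in most tissues and are induced by zinc through the transcription factor MTF-1, which binds short metal response elements (MREs) in their promoters, and also by glucocorticoids, cytokines of the interleukin-6 family, hypoxia and oxidative stress. Mt3, also called growth inhibitory factor, is known mainly from the brain, and Mt4, the remaining mouse metallothionein, from stratified squamous epithelium.

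The 4 genes lie on the plus strand of chromosome 8 in the order Mt4, Mt3, Mt2 and Mt1. In the GENCODE M21 annotation of mm10, Mt4 spans chr8:94137197-94139031, Mt3 spans chr8:94152607-94154146, Mt2 spans chr8:94172664-94173568 and Mt1 spans chr8:94179082-94180327. All are protein-coding, and the principal transcript of each has 3 exons, with 549 bases in Mt1, 511 in Mt2, 536 in Mt3 and 398 in Mt4. The longest exact run of bases that 2 members share is 27, between Mt1 and Mt3, and no transcript of another gene shares a run of 50 or more with any of them. The annotated antisense gene Gm45774 overlaps Mt2. The libraries came from a stranded kit, but the sources used here do not give the strand setting of the authors' counting, so sense and antisense reads at Mt2 may not have been told apart.

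The promoters are shown because MREs are the elements through which Mt1 and Mt2 are known to be induced. Each window runs from 250 bases before the RefSeq start site to 50 after it (RefSeq, GRCm38.p6), on the plus strand, at chr8:94178839-94179138 for Mt1, chr8:94172368-94172667 for Mt2 and chr8:94152357-94152656 for Mt3. Capitals mark matches on either strand to the MRE core TGCGCNC or TGCACNC, in which N is any base.
Mt1: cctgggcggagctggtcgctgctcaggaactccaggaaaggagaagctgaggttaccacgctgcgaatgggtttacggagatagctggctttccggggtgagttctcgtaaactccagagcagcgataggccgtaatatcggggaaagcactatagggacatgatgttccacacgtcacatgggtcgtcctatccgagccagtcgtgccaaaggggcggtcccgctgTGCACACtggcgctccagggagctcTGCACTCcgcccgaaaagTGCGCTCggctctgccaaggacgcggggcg
Mt2: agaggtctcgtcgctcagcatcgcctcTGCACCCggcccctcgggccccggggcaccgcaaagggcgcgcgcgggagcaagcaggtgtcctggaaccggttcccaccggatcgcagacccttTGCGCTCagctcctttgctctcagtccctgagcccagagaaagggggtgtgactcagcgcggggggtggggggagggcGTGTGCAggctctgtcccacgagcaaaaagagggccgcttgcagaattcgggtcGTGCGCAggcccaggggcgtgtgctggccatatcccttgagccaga
Mt3: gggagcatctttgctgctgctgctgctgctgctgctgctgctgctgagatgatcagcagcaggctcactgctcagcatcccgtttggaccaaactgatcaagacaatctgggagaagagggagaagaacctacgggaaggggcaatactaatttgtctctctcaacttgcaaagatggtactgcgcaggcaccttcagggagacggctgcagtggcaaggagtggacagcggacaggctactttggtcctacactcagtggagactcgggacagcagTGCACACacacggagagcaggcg

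The Mt1 window held 3 core matches, the Mt2 window 4 and the Mt3 window 1, and the Mt4 window also held 1. Of 27025 promoters of the same length, 25.6% held at least 1 match, 7.11% at least 2 and 2.0% at least 3. The matches in Mt1 begin at -23, +3 and +21 from the start site, those in Mt2 at -223, -128, -50 and +5, and the one in Mt3 at +28. The annotated starts vary: the principal Mt2 transcript of GENCODE begins 46 bases after the RefSeq start, and other Mt1 transcripts begin 122 and 152 bases after it. A second window, the first 150 bases of the principal transcript, which overlaps the first by 57 bases for Mt1 and Mt4, 4 for Mt2 and 50 for Mt3, was therefore counted as well. It held 4 matches in Mt1, 3 in Mt2, 3 in Mt3 and 0 in Mt4. Among 17215 genes with a principal transcript, 0.476% had at least 3 matches there and 0.0465% at least 4. Of other motifs searched on both strands, the antioxidant element TGACNNNGC matched once in Mt2, as in 12.5% of promoters. The hypoxia core ACGTG matched once in Mt1, as in 19.7%. The hexamer TGTTCT of the glucocorticoid receptor matched in none of the members and in 19.0% of promoters. A match is a string of letters and not a bound site, and a window without one says nothing of a factor.

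Libraries held 53.26 to 68.44 M reads, of which 41.74 to 53.87 M were recovered over the listed genes, and 3 reads were worth 0.0504 to 0.0818 normalized CPM. Normalized CPM is the authors' unit, reads scaled to an effective library size, and levels below are in this unit unless stated. Sspn was at 1740 ± 185 (SD, n = 4) in mdxTG against 114 ± 4.9 (n = 4) in mdx, and Dmd at 52.6 ± 4.44 in mdx against 223 ± 55.4 (n = 5) in WT, as the labels say. All 6 muscle fibre markers fixed for the tissue were listed, and their summed level per library lay between 132000 and 183000 for WT, between 104000 and 135000 for mdx and between 81200 and 98700 for mdxTG. Over 13831 genes tested with limma on log2(normalized CPM + 0.5), at a Benjamini-Hochberg adjusted p under 0.05, 2559 rose and 2223 fell in mdx against WT, 2133 rose and 1789 fell in mdxTG against mdx, and 3967 rose and 3501 fell in mdxTG against WT. These splits rest on the authors' scaling factors. Without the factors, the median log2 fold of all genes moved to 0.20, 0.13 and 0.36, and 5153 rose against 736 that fell, 3506 against 981, and 7919 against 1181.

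Mt1 and Mt2 stood higher in mdx than in WT, and higher in mdxTG than in all mdx libraries but 1, whereas Mt3 was low in both WT and mdx and high in mdxTG. Mt1 was at 11.8, 14.6, 8.29, 9.62 and 11.6 in WT replicates 1 to 5. It was at 31.3, 104, 30.0 and 33.6 in mdx replicates 1 to 4, and at 106, 97.1, 127 and 125 in mdxTG replicates 1 to 4. Every mdx and mdxTG library lay above every WT library. Mdx replicate 2 stood at the level of mdxTG, above the lowest mdxTG library, while the other 3 mdx libraries lay close together and below all of mdxTG.

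Mt2 stood further above WT than Mt1. Its levels were 5.02, 6.79, 6.23, 5.96 and 7.55 in WT, 45.5, 199, 42.1 and 45.2 in mdx, and 227, 193, 205 and 265 in mdxTG, in order of replicate number. No mdx or mdxTG library overlapped WT, and again mdx replicate 2 alone reached into the range of mdxTG. The read numbers behind these values were 208 to 379 for Mt2 and 315 to 581 for Mt1 in WT, and at least 1371 for either gene in every other library.

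Mt3 had another pattern. It was at 1.33, 1.47, 1.00, 1.17 and 1.12 in WT, from 38 to 56 reads per library, and at 3.21, 3.97, 4.12 and 2.44 in mdx. It was at 286, 213, 206 and 239 in mdxTG, from 11687 to 13734 reads. The 3 genotypes did not overlap, and mdx replicate 2, high for Mt1 and Mt2, was not the highest mdx library for Mt3.

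**Figure D1:**
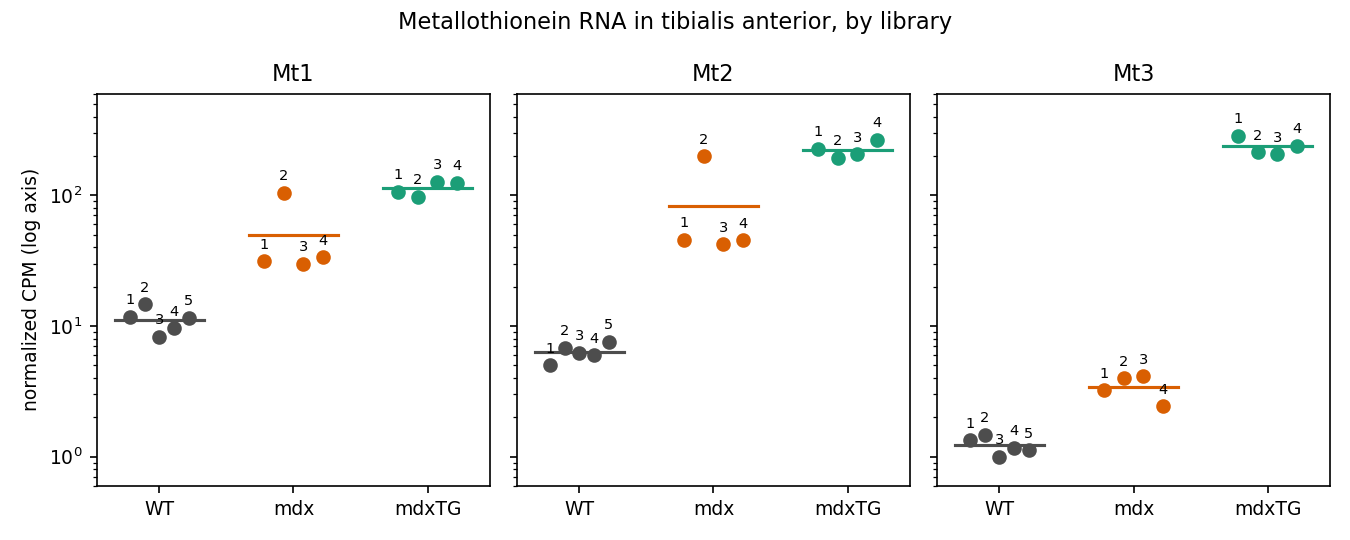
Normalized CPM on a log axis of Mt1, Mt2 and Mt3 in each library; points are libraries with their replicate number, and horizontal lines are genotype means. Mdx replicate 2 lies at 104 for Mt1 and 199 for Mt2, beside the mdxTG libraries, and the 4 mdxTG libraries of Mt3 lie between 206 and 286, far above mdx.

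In mdx against WT the mean of Mt1 was 49.8 ± 36.4 (SD, n = 4) against 11.2 ± 2.39 (n = 5), a ratio of 4.46 and a log2 fold on the log2(CPM + 0.5) scale of 1.91 ± 0.29 (SE). Mt2 was at 83.0 ± 77.6 against 6.31 ± 0.941, 13.2 times as high, with a log2 fold of 3.27 ± 0.35. Mt3 was at 3.43 ± 0.77 against 1.22 ± 0.186, 2.82 times as high, with a log2 fold of 1.18 ± 0.14, a size that the pseudocount understates at this level. All 3 thus had every mdx library above every WT library, as had 15.0% of all genes tested. The large SDs of Mt1 and Mt2 in mdx come from replicate 2. Over the other 3 mdx libraries the means were 31.6 ± 1.82 for Mt1, 44.3 ± 1.91 for Mt2 and 3.26 ± 0.837 for Mt3 (n = 3), which are 2.83, 7.01 and 2.68 times WT. In the authors' deposited table of this comparison the log2 folds were 2.16 for Mt1, 3.72 for Mt2 and 1.49 for Mt3.

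Between mdxTG and mdx the differences of Mt1 and Mt2 were smaller than that of Mt3 and depended on mdx replicate 2. Mt1 averaged 114 ± 14.5 (n = 4) in mdxTG, 2.28 times mdx, with a log2 fold of 1.40 ± 0.31. Mt2 averaged 222 ± 31.5, 2.68 times mdx, with a log2 fold of 1.77 ± 0.37. The mdxTG and mdx libraries of both genes overlapped, through mdx replicate 2 only. Against the other 3 mdx libraries the mdxTG means were 3.6 times as high for Mt1 and 5.03 times for Mt2. Mt3 averaged 236 ± 36.2, which was 68.7 times mdx with all 4 mdx libraries and 72.5 times without replicate 2, and its log2 fold was 5.92 ± 0.15. Its mdxTG libraries all lay above its mdx libraries, as did those of 18.1% of the genes tested. The authors' deposited table of this comparison lists Mt3, with a log2 fold of 6.11, and lists neither Mt1 nor Mt2. That table holds 748 genes, with a largest adjusted p of 0.00989 and no log2 fold under 1.0 in size.

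Against WT, the mdxTG means were 10.2 times as high for Mt1, 35.3 times for Mt2 and 194 times for Mt3, with log2 folds of 3.31 ± 0.29, 5.03 ± 0.35 and 7.10 ± 0.14. All mdxTG libraries lay above all WT libraries for each of them, as for 23.7% of the genes tested. In the authors' deposited table the log2 folds were 3.35, 5.14 and 7.6. The comparisons share libraries, so a member's values in them are not independent of each other.

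Per kilobase of the principal transcript, the order of the members changed with genotype. In WT, Mt1 was at 20.3 ± 4.36 normalized CPM per kb, Mt2 at 12.4 ± 1.84 and Mt3 at 2.27 ± 0.346 (n = 5), and the ranges of the 3 genes did not overlap. In mdx, Mt2 was at 162 ± 152 and Mt1 at 90.8 ± 66.4, with Mt3 at 6.41 ± 1.44 below both in every library. Mt2 was above Mt1 in each of the 4 mdx libraries. The wide SDs came from mdx replicate 2: in the other 3 libraries Mt1 was at 54.7 to 61.2 per kb and Mt2 at 82.3 to 89.0, which did not overlap. In mdxTG, Mt3 at 440 ± 67.6 and Mt2 at 435 ± 61.7 were level within their spread, and Mt1 was lower at 207 ± 26.4 (n = 4). The highest Mt1 library of mdxTG, at 231 per kb, lay under the lowest of Mt2 at 377 and of Mt3 at 384.

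The ratio of Mt1 to Mt2 within a library turned over between WT and the other genotypes. On the log2 scale of normalized CPM, where a shift between libraries does not depend on transcript length, it averaged 0.81 ± 0.34 (SD, n = 5) in WT, -0.60 ± 0.23 in mdx and -0.97 ± 0.19 in mdxTG (n = 4 each). The lowest WT library, replicate 3, was at 0.41, and the highest of the others, mdx replicate 4, at -0.43. Mdx replicate 2, at -0.93, was the lowest of mdx, with mdxTG between -1.1 and -0.69. The SD of log2 level in mdx was 0.86 for Mt1, 1.09 for Mt2 and 0.35 for Mt3. Without mdx replicate 2 it was 0.08 for Mt1, 0.06 for Mt2 and 0.38 for Mt3, beside 0.06 for the ratio. In mdxTG the SDs were 0.19, 0.20 and 0.21.

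Mt4 is the remaining listed member of the family. It had 0 reads in all 5 WT libraries and in 3 mdx libraries, and 2 reads, or 0.0446, in mdx replicate 2. It was at 2.77, 1.84, 1.28 and 1.03 in mdxTG, from 52 to 133 reads. The mdxTG mean was at least 23.2-fold higher than WT, where a count of 0 allows 0.0745, the mean value of 3 reads per library, for counting error only. At 4.34 ± 1.94 per kb it was far below the other members in mdxTG. It passed the filter on low values, 0.5 in 4 libraries, through mdxTG alone, so no test is given.

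To place mdx replicate 2, genes with a mean of at least 1 normalized CPM were ordered by the log2 excess of that library over the median of the other 3 mdx libraries, a ranking made after the values had been seen. Among 12975 genes, Mt2 ranked 3 with an excess of 2.13 and Mt1 ranked 5 with 1.72, while Mt3 ranked 1611 with 0.27. Rrad, a small GTPase of striated muscle, ranked 1 with 2.51. The others in the first 10 were Gm9522 (2.15), Card14 (2.07), Timp1 (1.42), Serpinb1a (1.39), Tceal7 (1.38), Ankrd1 (1.31) and Dusp5 (1.31). Of all genes, 26.3% were highest of mdx in that library. Among the metal lists described below this held for 5 of 9 zinc response genes, 1 of 7 zinc exporters, 5 of 11 zinc importers and 3 of 15 copper genes. Among the others it held for 8 of 17 interleukin-6 and STAT3 genes, 7 of 12 NRF2 genes, 0 of 17 glucocorticoid genes, 3 of 19 hypoxia genes and 7 of 16 atrophy genes. The 6 macrophage markers summed to 173 in that library, within the 139 to 291 of mdx.

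Levels in a bulk muscle sample cannot tell more RNA per cell from more cells of a type. The macrophage markers, all 6 listed, had sums of 36.7 to 128 over the WT libraries, of 139 to 291 over mdx and of 205 to 281 over mdxTG. These sums were thus higher than WT together with the members. Cd68 was at 92.6 to 105 in mdxTG against 2.73 to 7.63 in WT, a large part of the sum. In mdxTG against mdx 1 of the 6 rose and 1 fell, beside 15.4% and 12.9% of all genes. Sums of the 5 satellite cell markers, all listed, also lay above WT in both other genotypes. They were 41.7 to 60.3 for WT, 74.3 to 104 for mdx and 64.5 to 79.9 for mdxTG. Of these markers 4 rose and 0 fell in mdx against WT, beside 18.5% and 16.1% of all genes. In mdxTG against WT 2 rose and 0 fell, beside 28.7% and 25.3%. Myf5 did not lie above WT there, at 1.23 to 1.33 in mdxTG against 1.25 to 1.91 in WT. Fibro-adipogenic progenitor markers, 5 and all listed, summed to 540 to 1200 for WT, 609 to 1060 for mdx and 1030 to 1480 for mdxTG. Most of this sum was Dcn, with mdxTG libraries at 864 to 1230, mdx libraries at 476 to 816 and WT libraries at 431 to 993. By limma, Dcn and Pdgfra rose and Ly6a fell in mdxTG against WT, so 2 rose and 1 fell, beside 28.7% and 25.3% of all genes. In mdxTG against mdx 1 rose and 0 fell, and in mdx against WT 0 rose and 0 fell. The part of any of these cell types in the members' levels was not tested. Of 7 astrocyte and neuron markers, which mark cells in which Mt3 is best known, 4 were listed, and their sums per library were 47.9 to 74.3 for WT, 54.6 to 67.8 for mdx and 45.7 to 59.0 for mdxTG. Gfap, Snap25 and Rbfox3 were not among the genes of the sheet. Most of the sum in every library was Aqp4, so the sums mainly follow that gene. The mdxTG libraries had Aqp4 at 38.4 to 51.7, the mdx libraries at 51.0 to 64.4 and the WT libraries at 41.9 to 67.8. Of the 4, Slc1a2, a glutamate transporter of astrocytes, had levels of 2.28 to 3.75 in mdxTG, against 0.0568 to 0.178 in mdx and 0.0795 to 0.354 in WT. The other 3 did not pass in mdxTG against mdx by limma: the log2 fold was -0.30 for Aqp4, -0.11 for Syp and 0.34 for Slc1a3 (adjusted p = 0.126, 0.539 and 0.287). Against WT, Syp fell in mdxTG by 0.59 (adjusted p = 6.63e-04), and the folds of Aqp4 and Slc1a3 were -0.23 and -0.24 (adjusted p = 0.151 and 0.36). The 7 nerve and Schwann cell markers had sums of 104 to 278 for WT, 53.8 to 72.5 for mdx and 79.2 to 115 for mdxTG.

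The listed neighbours of the cluster were then tested to see whether the surrounding genes moved too. Within 500 kb of the span from Mt3 to Mt1 11 listed genes besides Mt4 are described. In mdxTG against mdx 3 of them rose, against 15.4% of all genes, and 0 fell by limma, against 12.9%. Nlrc5 alone was lower at an unadjusted p under 0.05, and with edgeR on the recovered reads it passed, falling by 0.91 on the log2 scale (adjusted p = 0.0383). All 3 lie on the side of Mt1. Cpne2, which encodes a calcium-dependent membrane-binding copine, lies 353 kb beyond Mt1 and was at 107, 87.1, 64.7 and 92.4 in mdxTG against 12.5, 12.1, 13.4 and 11.8 in mdx. The groups were far apart, and the log2 fold was 2.75 ± 0.14 (limma adjusted p = 5.81e-09). Nup93, a scaffold nucleoporin and the nearest listed neighbour on that side, at 34.2 kb, rose from 17.5 to 29.7 (log2 fold 0.75 ± 0.09, adjusted p = 3.98e-05). Arl2bp, which binds the small GTPase ARL2, at 486 kb, rose from 52.2 to 78.2 (0.57 ± 0.09, adjusted p = 2.73e-04). In each of these genes every mdxTG library lay above every mdx library.

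The 4 described genes on the side of Mt3, from Bbs2 at 53.7 kb to Gnao1 at 183 kb, had log2 folds between -0.06 and 0.12 in mdxTG against mdx, and none passed the test. Bbs2, a subunit of the ciliary BBSome, had a log2 fold of 0.12 ± 0.09 (adjusted p = 0.378). On the side of Mt1, Herpud1 (-0.12, adjusted p = 0.183), Fam192a (0.21, 0.0683) and Rspry1 (0.08, 0.471) also did not pass. Nlrc5, a regulator of MHC class I genes, had a log2 fold of -0.76 ± 0.28 (adjusted p = 0.0602), and it passed without WT replicate 1 (0.0482) or mdx replicate 1 (0.00843).

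Between mdx and WT, 3 of the 11 neighbours rose, against 18.5% of all genes, and 3 fell, against 16.1%. Cpne2 rose from 7.43 to 12.4 (log2 fold 0.72 ± 0.13, adjusted p = 7.92e-04). Herpud1, a protein of endoplasmic reticulum-associated degradation, fell from 145 to 94.9 (-0.61 ± 0.06, adjusted p = 7.88e-06). Gnao1 (-0.64 ± 0.11) and Fam192a (-0.26 ± 0.08) fell as well, but leaving out mdx replicate 4 ended the call of Fam192a (adjusted p = 0.0614), as did leaving out the scaling factors (0.759). Nup93 rose by 0.31 ± 0.09 and Nlrc5 by 0.78 ± 0.27. The call of Nup93 ended when mdx replicate 2 was left out (adjusted p = 0.0584) and when the replicate numbers entered a fit of these genotypes as a block (0.0801). Nlrc5 did not pass when any of WT replicates 1, 3 and 4 or mdx replicates 2, 3 and 4 was left out, with the highest adjusted p, 0.134, without mdx replicate 4. Between mdxTG and WT, the log2 folds were 3.47 ± 0.13 for Cpne2, 1.06 ± 0.09 for Nup93 and 0.74 ± 0.09 for Arl2bp, with adjusted p of 1.12e-10, 2.51e-07 and 5.42e-06, and -0.74 ± 0.06 for Herpud1 and -0.69 ± 0.11 for Gnao1, with adjusted p of 2.75e-07 and 9.96e-05.

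**Figure D2:**
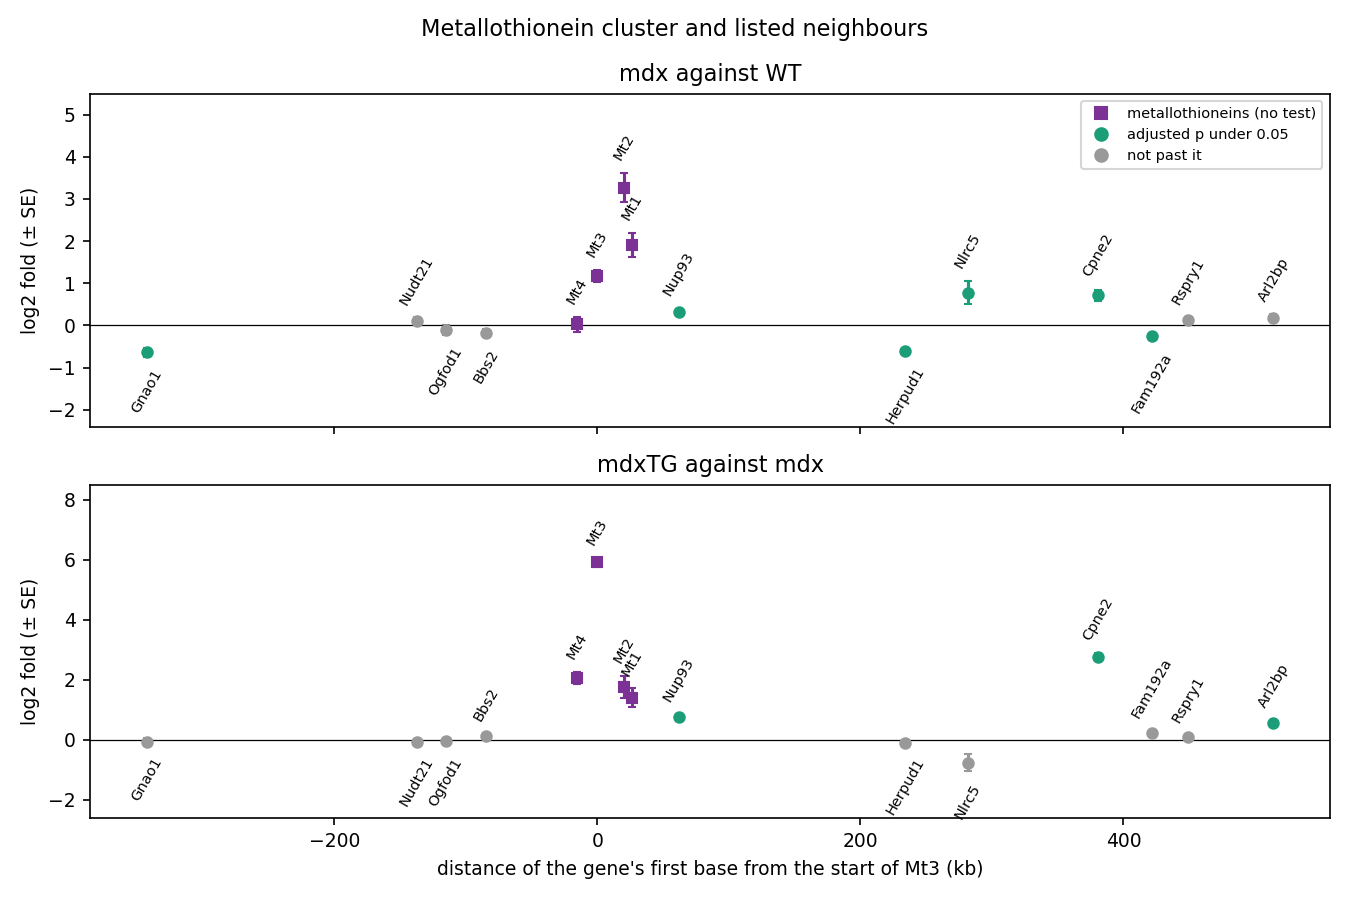
Log2 fold with its SE of the metallothioneins (squares) and 11 listed neighbours (circles, filled green past an adjusted p of 0.05) by distance in kb of the gene's first base from the start of Mt3, for mdx against WT (top) and mdxTG against mdx (bottom). In mdxTG against mdx, Mt3 is at 5.92 and Cpne2 at 2.75, and the 4 genes to the left of Mt4 lie between -0.06 and 0.12.

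Mtf1, which encodes the zinc-sensing activator of Mt1 and Mt2, did not pass the test in any comparison, with log2 folds of -0.20 ± 0.10 in mdx against WT (adjusted p = 0.128), -0.01 ± 0.10 in mdxTG against mdx (0.952) and -0.21 ± 0.10 in mdxTG against WT (0.0807). Without WT replicate 2 the first and last passed, at adjusted p of 0.0152 and 0.00781. Slc30a1, the zinc exporter that MTF-1 also induces, had log2 folds of -0.17 ± 0.11 (adjusted p = 0.231), 0.30 ± 0.11 (0.0557) and 0.13 ± 0.11 (0.31). For mdxTG against mdx it passed without WT replicate 2 (0.0269) or mdxTG replicate 3 (0.041) and with edgeR (0.0465). Its mdxTG levels, 16.7, 20.9, 15.2 and 16.5, all lay above its mdx levels, 14.5, 13.1, 14.2 and 13.7.

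How many genes of metal handling were called in mdx against WT depended on whether libraries were paired by replicate number and on which genotypes were in the fit. Of 48 genes in 4 lists (zinc response and MTF-1 targets, zinc exporters of the Slc30 family, zinc importers of the Slc39 family, copper handling), 41 were listed and tested. In mdx against WT 5 rose and 7 fell, 12.2% and 17.1% beside 18.5% and 16.1% of all genes, with a median log2 fold of 0.01 against -0.01 for all genes. The labels number the replicates but do not say that equal numbers pair libraries. With the numbers entered as a block in a fit of these genotypes the calls were 10 and 12, so 22 in place of 12. These are 24.4% and 29.3% of the list, beside 19.8% and 18.8% of all genes in the same fit. Without the block, the fit of these 2 genotypes gave 10 calls, and the block in the fit of all libraries gave 15. WT replicate 5 has no mdx library of its number and so carries no weight in the blocked folds. In the blocked fit of 2 genotypes 4 copper genes rose and 4 fell, 2 exporters rose, 2 importers fell and 1 zinc response gene rose. The counts were 1, 1, 1, 1 and 0 in the fit of all libraries without the block. In mdxTG against mdx 5 rose and 5 fell, 12.2% each way beside 15.4% and 12.9% of all genes, with a median of 0.01 against 0.00. In mdxTG against WT 11 rose and 9 fell, against 28.7% and 25.3% of all genes, with a median of 0.11 against 0.02. Leaving out single libraries gave 4 to 7 up and 4 to 7 down in mdx against WT, with the fewest calls, 8 in all, without mdx replicate 2. It gave 4 to 8 up and 3 to 5 down in mdxTG against mdx, with the fewest calls, 7, without mdxTG replicate 4. Without the scaling factors the calls were 18 up and 1 down, 13 up and 3 down, and 25 up and 3 down; of all genes, 37.2% then rose and 5.3% fell in mdx against WT, and 25.3% and 7.1% in mdxTG against mdx.

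Of the 9 zinc response genes, 0 rose and 4 fell by limma in mdx against WT (Slc39a10 alone was higher at an unadjusted p under 0.05; 0 rose with edgeR) and 1 rose and 1 fell in mdxTG against mdx. The 4 that fell were 44.4% of the list, beside 16.1% of all genes. In mdxTG against mdx the shares were 11.1% each way, beside 15.4% and 12.9% of all genes. This list holds Mtf1 itself and was not split by the direction in which zinc moves each gene. Its counts therefore do not give the direction of a zinc response. Without the scaling factors 1 rose and 1 fell, and in mdxTG against mdx 3 and 1. With single libraries left out, the calls were 0 to 1 and 3 to 4, and 1 to 2 and 1. Slc40a1, the iron exporter ferroportin, fell from 39.9 in WT to 26.4 in mdx (log2 fold -0.58 ± 0.10, adjusted p = 3.98e-04) and to 12.7 in mdxTG, where it was lower than in mdx (-1.03 ± 0.10, adjusted p = 4.16e-06). Csrp1, a LIM-domain protein, rose from 38.9 in mdx to 58.3 in mdxTG (0.58 ± 0.11, adjusted p = 9.18e-04). Gclc, the catalytic subunit of glutamate-cysteine ligase, and the selenoprotein gene Selenow fell in mdx against WT by 0.42 and 0.56 on the log2 scale (adjusted p = 0.00135 and 0.0105), calls that were lost without the scaling factors.

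Of 7 zinc exporters, 1 rose and 1 fell in mdx against WT and 0 rose and 2 fell in mdxTG against mdx by limma, where Slc30a1 alone was higher at an unadjusted p under 0.05 and with edgeR. The splits without the scaling factors were 4 to 0 and 2 to 1. With single libraries left out 0 to 3 and 0 to 1 rose, and 1 and 1 to 2 fell. Beside these, 18.5% of all genes rose and 16.1% fell in mdx against WT, and 15.4% and 12.9% in mdxTG against mdx. Without the scaling factors the shares of all genes were 37.2% and 5.3%, then 25.3% and 7.1%. Importers and copper genes stand beside the same shares. Slc30a2 fell from 14.7 in mdx to 4.57 in mdxTG (log2 fold -1.67 ± 0.37, adjusted p = 0.00344). Of 11 zinc importers, 3 rose and 1 fell in mdx against WT, 27.3% and 9.1% of them. Without the scaling factors 8 rose and 0 fell, 72.7% and 0.0% of them, beside 37.2% and 5.3% of all genes. Slc39a14, which carries zinc, iron and manganese into cells and is known to respond to interleukin-6 in liver, rose from 17.8 to 31.2 (0.79 ± 0.11, adjusted p = 9.70e-05). Slc39a6 rose from 3.67 to 6.44 (0.75 ± 0.12, adjusted p = 3.56e-04) and Slc39a1 from 40.0 to 49.1 (0.29 ± 0.07, adjusted p = 0.0063). Between mdx and mdxTG 2 importers rose, 1 to 3 with single libraries left out and 5 without the scaling factors, and Slc39a3 had the smaller p, with a log2 fold of 0.38 ± 0.09 (adjusted p = 0.00532). Of 16 copper genes, 1 rose and 1 fell in mdx against WT and 2 rose and 2 fell in mdxTG against mdx, with 0 to 1 each way and 1 to 3 and 1 to 2 at single libraries left out. Without the scaling factors 6 copper genes rose and 0 fell, and 4 rose and 1 fell. App, the amyloid precursor protein, which binds copper, rose from 169 to 287 in mdxTG (0.77 ± 0.15, adjusted p = 0.00144), and Cox11, a copper chaperone of cytochrome oxidase, fell from 20.3 to 14.8 (-0.45 ± 0.09, adjusted p = 0.00252).

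Lists of responses known to induce metallothionein RNA held 86 genes, of which 81 were tested. They hold regulators of each pathway, such as Keap1, Vhl and Hif1a, beside response genes, so their counts do not give the direction of a response. In mdx against WT 18 rose and 22 fell, which is 22.2% and 27.2% beside 18.5% and 16.1% of all genes. In mdxTG against mdx 18 rose and 18 fell, 22.2% each way beside 15.4% and 12.9%. The medians were -0.03 and -0.11. In mdxTG against WT 25 rose and 25 fell, 30.9% each way beside 28.7% and 25.3%. Without the scaling factors the splits were 28 to 8, 25 to 13 and 37 to 13.

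The shares of all genes just given are those beside which the lists that follow stand. Among 17 genes of the interleukin-6 family and STAT3 response, 8 rose and 1 fell in mdx against WT (8 to 9 and 1 to 3 with single libraries left out). These are 47.1% and 5.9%, beside 18.5% and 16.1% of all genes. Without the scaling factors 9 rose and 1 fell, 52.9% and 5.9%, beside 37.2% and 5.3% of all genes. Timp1, an inhibitor of metalloproteinases, rose from 1.09 to 16.2 (log2 fold 3.26 ± 0.24, adjusted p = 6.22e-07) and Fos from 3.07 to 8.12 (1.24 ± 0.17, adjusted p = 7.25e-05). Jak2, a kinase of this pathway, fell from 99.8 to 59.5 (-0.74 ± 0.07, adjusted p = 6.38e-06). Jak1, another kinase of the list, was at 154 to 235 in WT and 185 to 203 in mdx. In mdxTG against mdx 3 rose and 4 fell, 17.6% and 23.5%, with 1 to 3 and 2 to 4 at single libraries left out and 3 and 2 without the scaling factors. Junb rose from 13.6 to 32.5 (1.20 ± 0.16, adjusted p = 7.91e-05) and Jak2 fell to 30.2 (-0.97 ± 0.08, adjusted p = 6.47e-07). Among 12 NRF2 response genes, 2 rose and 5 fell in mdx against WT, and 4 rose and 2 fell in mdxTG against mdx (1 up in mdx against WT without mdx replicate 4). The shares were 16.7% and 41.7%, then 33.3% and 16.7%, and without the scaling factors 3 rose and 1 fell, then 6 and 2. Srxn1, the sulfiredoxin that repairs peroxiredoxins, rose in mdxTG from 38.3 to 143 (1.99 ± 0.20, adjusted p = 5.70e-06) and Nqo1, a quinone reductase, from 14.2 to 40.6 (1.48 ± 0.16, adjusted p = 7.98e-06). Srxn1 was at 63.9 in mdx replicate 2 and 24.6 to 35.3 in the other mdx libraries.

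Among 17 glucocorticoid response genes, 2 rose and 2 fell in mdx against WT, and 2 rose and 5 fell in mdxTG against mdx (with single libraries left out 0 to 2 up and 1 to 4 down, and 1 to 2 up and 2 to 6 down; with the block of WT and mdx libraries 4 rose in mdx). The shares were 11.8% each way, then 11.8% and 29.4%. The splits without the scaling factors were 4 to 0, then 2 to 3. Klf15, a muscle target of the glucocorticoid receptor, averaged 54.0 in WT, 37.1 in mdx and 18.8 in mdxTG, and its fall in mdxTG against mdx was -0.97 ± 0.11 (adjusted p = 1.71e-05). Glul, glutamine synthetase, fell from 404 in mdx to 153 in mdxTG (-1.37 ± 0.19, adjusted p = 8.25e-05). Fkbp5 rose from 32.4 in WT to 63.4 in mdx (0.89 ± 0.31, adjusted p = 0.0388), a call that did not hold without any of WT replicates 1 to 4 or mdx replicates 3 and 4 (highest adjusted p = 0.13). Among 20 hypoxia genes, 2 rose and 7 fell in mdx against WT (4 down without mdx replicate 2), and 2 rose and 5 fell in mdxTG against mdx. The 7 that fell in mdx were 35.0% of the list, beside 16.1% of all genes, and the 5 in mdxTG compare with 12.9% of all genes. On plain CPM, with no scaling factors, 7 rose and 1 fell in mdx, then 4 and 4. The glucose transporter gene Slc2a1 rose in mdxTG to 36.5 (1.82 ± 0.14, adjusted p = 4.05e-07). P4ha2 fell in mdxTG, at 19.1 to 24.3 against 27.9 to 31.1 in mdx. Egln1 fell there too, at 127 to 160 against 188 to 231. It also fell in mdx against WT, with a log2 fold of -0.63 ± 0.08 (limma adjusted p = 7.34e-05). Among 16 muscle atrophy genes, 4 rose and 7 fell in mdx against WT and 7 rose and 2 fell in mdxTG against mdx. The 7 that fell in mdx and the 7 that rose in mdxTG were each 43.8% of the list, beside 16.1% and 15.4% of all genes; the 4 and the 2 compare with 18.5% and 12.9%. On plain CPM 5 rose and 5 fell, then 10 and 2. Trim63, a ubiquitin ligase of the sarcomere, rose in mdxTG from 145 to 394 (1.45 ± 0.12, adjusted p = 7.64e-07), and Cdkn1a, the cyclin-dependent kinase inhibitor p21, rose in mdx from 11.9 to 41.9 (1.78 ± 0.17, adjusted p = 3.39e-06).

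**Figure D3:**
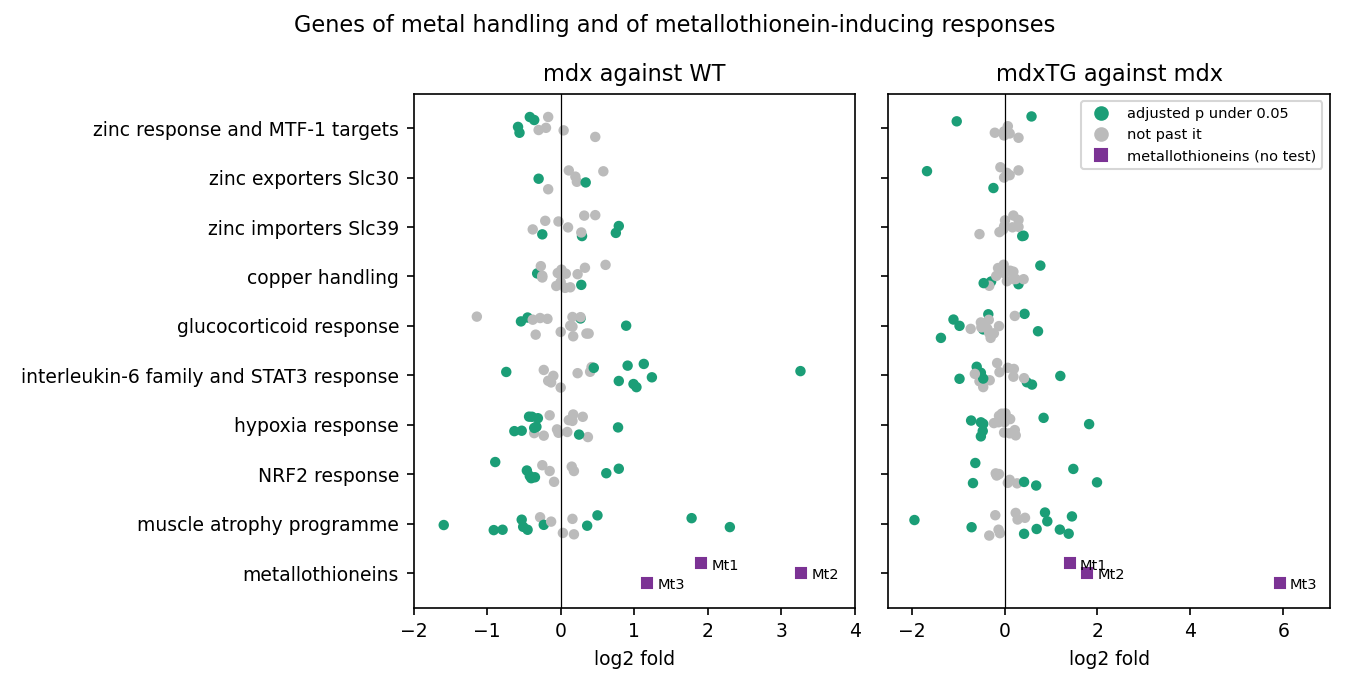
Log2 fold of each tested gene of the 9 lists, in mdx against WT (left) and mdxTG against mdx (right); green points passed an adjusted p of 0.05, grey points did not, and squares are the members, which were not tested. Mt2 at 3.27 lies beside Timp1 at 3.26 in mdx against WT, and Mt3 at 5.92 lies beyond every gene of these lists in mdxTG against mdx.

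The genes whose profiles over the 13 libraries lay nearest to each member differed between the members. Nearness was the root mean square difference in log2 level after each gene was centred on its own mean, among the 12975 genes with a mean of at least 1. By this measure Mt1 and Mt2 lay 0.80 apart, Mt2 and Mt3 1.71, and Mt1 and Mt3 1.97. The 5 genes nearest to Mt1 were Card14 (0.25), a scaffold of NF-kB signalling, Dusp5 (0.31), a nuclear phosphatase of ERK, Fosl1 (0.35), a subunit of AP-1, Kcne1l (0.40), an accessory subunit of potassium channels, and Sgms2 (0.42), a sphingomyelin synthase. Card14 was at 21.9 in mdx replicate 2 and 4.19, 5.45 and 4.81 in the other mdx libraries. It was at 1.00 to 1.91 in WT and 21.2 to 30.0 in mdxTG, and so had the same high mdx library as Mt1.

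The 5 genes nearest to Mt2 were Serpinb1a (0.41), an inhibitor of neutrophil proteases, Rrad (0.61), Lgals3 (0.67), which encodes galectin-3, Timp1 (0.67) and Atp6v0d2 (0.67), a subunit of the vacuolar proton pump. Rrad was at 11.1, 56.1, 9.46 and 6.01 in mdx, and at 33.4 to 43.6 in mdxTG. In Rrad, too, mdx replicate 2 was the highest library of mdx, and here it lay above all of mdxTG.

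The 5 genes nearest to Mt3 were Atp13a4 (0.65), a P-type ATPase, Anxa8 (0.68), an annexin, Msln (0.76), the surface protein mesothelin, Uchl1 (1.19), a ubiquitin hydrolase best known from neurons, and Ahnak2 (1.23). Anxa8 was at 1.93, 2.70, 2.47, 2.62 and 5.54 in WT, 1.81, 1.98, 4.18 and 2.65 in mdx, and 334, 245, 210 and 260 in mdxTG. Its log2 fold in mdx against WT was -0.15, where that of Mt3 was 1.18, and in mdxTG against mdx it was 6.42, beside 5.92. Atp13a4 was at most 0.105 in every WT and mdx library and at 53.4, 23.8, 26.5 and 26.5 in mdxTG. For both genes, as for Mt3, mdxTG replicate 1 was the highest library. The nearest genes were taken by their likeness over the same libraries, so their values are a description.

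**Figure D4:**
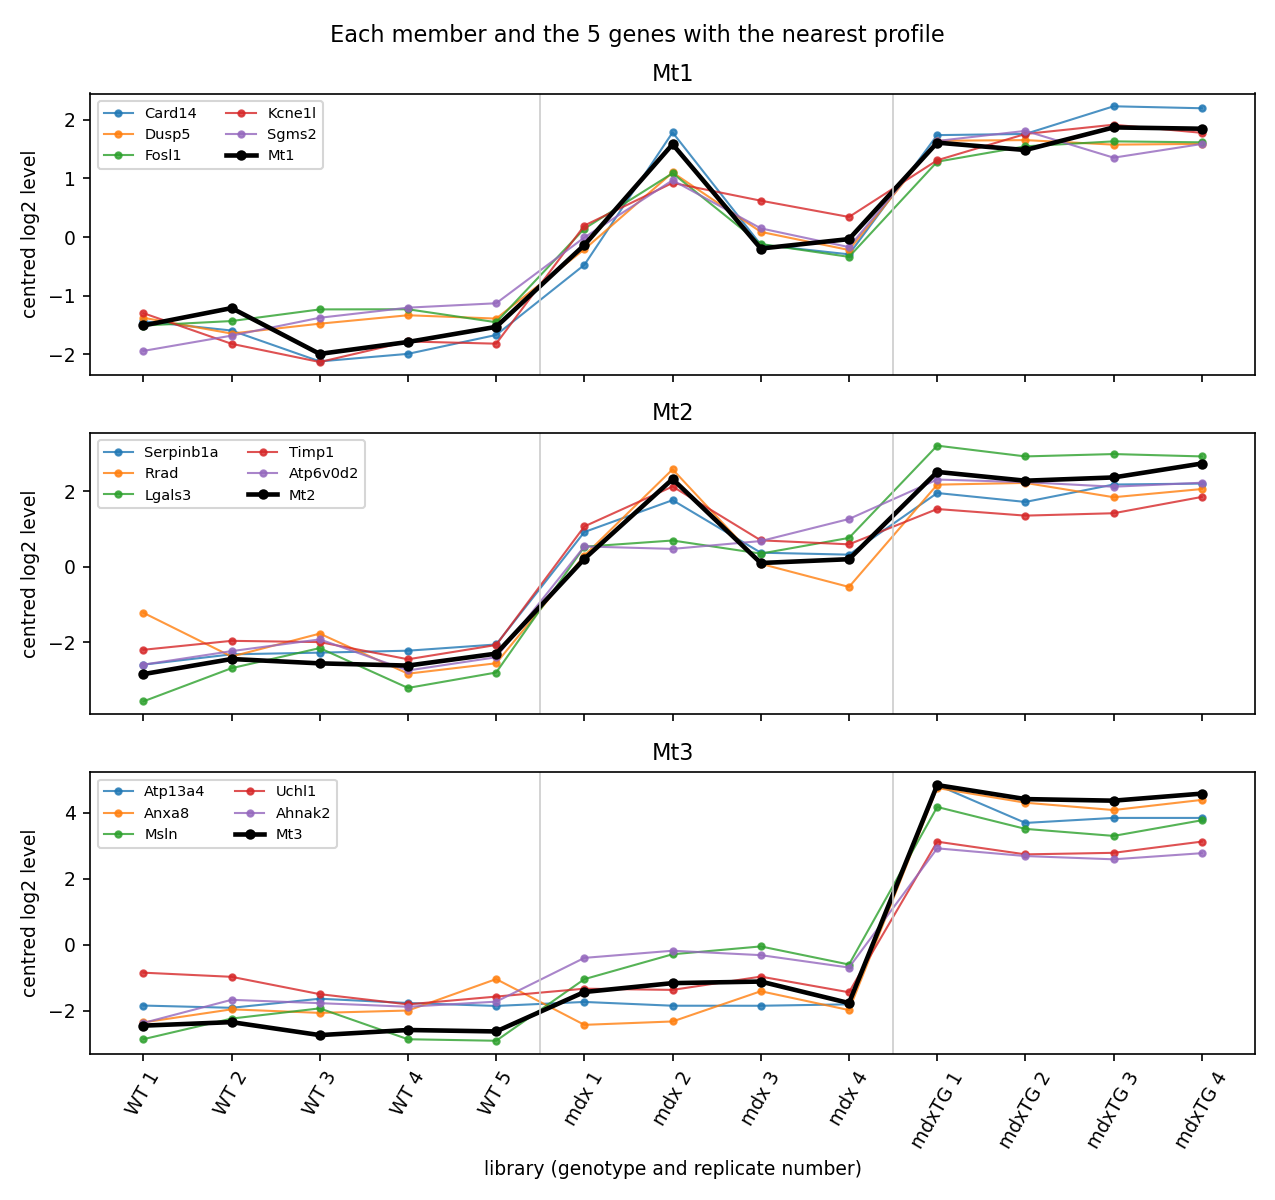
Log2(normalized CPM + 0.5), centred on each gene's mean, over the 13 libraries for Mt1, Mt2 and Mt3 (black) and the 5 genes nearest to each (coloured). The peak at mdx replicate 2 is shared by Mt1, Mt2 and most genes nearest to them and is lacking in Mt3 and its nearest genes, which step up in mdxTG.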

How the data were processed

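RNA of tibialis anterior was sequenced in 13 libraries made with a stranded mRNA kit, per the labels' protocols. The tools were bcl2fastq 2.17, STAR and edgeR with mm10, per the submitters' processing notes. Versions of STAR and edgeR, how and with which strand setting reads were counted, and the annotation are missing from the sources used here. The authors deposited total and mapped read counts and, as a fraction of the total, mapped shares. The deposited expression sheet holds a normalized signal, called CPM there, and its values are whole multiples of the smallest value of each library: 100% came within 0.001 reads of a whole number, and the implied scaling factors multiply to 1 and were lowest in WT (from 0.831) and highest in mdxTG (up to 1.191). The authors also deposited comparison tables with log2 fold changes, raw p-values and p-values they adjusted.

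Values were fitted here with limma 3.58.1 in R 4.3.3 (empirical Bayes trend, log2 of normalized CPM + 0.5, 1 mean per genotype, 13 libraries, at least 0.5 in 4 libraries, two-sided, Benjamini-Hochberg over 13831 genes, threshold 0.05) and, as an alternative, with edgeR 4.0.16 on the recovered reads. The limma procedure was also run on simulated counts in which a small set of genes was raised in mdxTG alone. That simulation had neither the wide shifts between genotypes nor the outlying library of these data, so it does not bear on them. "Rose" and "fell" mean past the threshold. The other alternatives were pseudocounts of 0.1 and 2, other filters, no scaling factors, fits of 2 genotypes, replicate blocks and single libraries left out. Members, gene lists and tests were chosen with earlier results of these data known. Genes named besides the members were Mtf1, Slc30a1, the listed neighbours within 500 kb (1 is not reported here), up to 3 genes per list and comparison with the smallest p among those past the threshold, and the 5 nearest profiles per member; Mt4, the 4 listed astrocyte and neuron markers and the genes highest in mdx replicate 2 were added after their values were seen. Deviations of WT and mdx libraries of one number had correlations across genes of 0.34, 0.45, 0.33 and 0.18. On that ground the numbers were taken to pair these libraries in the blocked fit. That pairing comes from the same data, and no correlations were computed between libraries of different numbers, so it is not established. In the comparisons with mdxTG some correlations were negative, the lowest -0.47, and there the numbers were not taken to pair libraries. The sources used here do not say what the numbers mark. They follow the order of the libraries' identifiers within each genotype, and the identifiers do not pair libraries either. Identifiers of mdx and mdxTG libraries interleave, and those of WT form a separate run. Promoters are from RefSeq (GRCm38.p6); all 4 metallothioneins matched by symbol. Counting intervals and the limit of 3 reads cover counting error only.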

Additional observations from a re-analysis of the deposited data

Results flagged for a closer look

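Among Mt1 to Mt4, Mtf1, Slc30a1 and the described neighbours of the cluster, 50 groups of libraries, each a gene in a genotype, were examined for a library far from the others, and 5 had one; chance gives about 1 in 20. Mt1 was at 104 normalized CPM in mdx replicate 2 and at 30.0 to 33.6 in the other mdx libraries. Mt2 was at 199 in the same library and at 42.1 to 45.5 in the others. Mt4 was at 0.0446, or 2 reads, in that library and at 0 in the other 3, a difference within counting error. Mtf1 was at 20.9 in mdxTG replicate 2 and at 21.6 in each of the others, a small gap in a tight group. Rspry1 was at 12.7 in mdxTG replicate 3 and at 14.0 to 14.2 in the others.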

How the results depend on the processing

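The log2 folds of Mt1, Mt2 and Mt3 kept their direction under every alternative run. Sizes moved by more than the spread for Mt3: 1.41 and 0.75 in mdx against WT at pseudocounts of 0.1 and 2 and 1.49 with edgeR; 7.49, 6.20 and 7.60 in mdxTG against WT in the same order, and 7.42 without scaling factors; and 5.45 in mdxTG against mdx at a pseudocount of 2. Leaving out single libraries gave, in mdx against WT, 1.49 to 2.08 for Mt1 and 2.73 to 3.47 for Mt2, and in mdxTG against mdx 1.23 to 1.82 and 1.56 to 2.31. With a replicate block in the fit of all libraries Mt1 was at 1.93, 1.40 and 3.33 in the 3 comparisons. Metal handling genes called numbered 19 in mdx against WT and 16 in mdxTG against mdx without scaling factors, and 22 in mdx against WT with a replicate block in a fit of 2 genotypes; among genes named in that comparison, Nup93 was the one whose call ended under that pairing. Single libraries left out gave 8 to 13, 7 to 13 and 17 to 23. Without scaling factors some log2 folds in mdxTG against WT changed sign. Those of genes past the threshold in either fit were Bbs2 0.28, Fam192a 0.32, Gclc 0.06, Sod1 0.24, Tek 0.02, Slc31a1 0.08 and Pecam1 0.06. Of the other values for single genes and lists, 7723 were classed as the same, 229 no longer passed, 118 newly passed and 142 moved. For a gene, the same means that it kept its side of the threshold. A gene past the threshold in neither fit may still have changed sign. For a list, the same means an equal or similar count.

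The members' differences rest on 4 or 5 libraries per genotype, and those of Mt1 and Mt2 between mdxTG and mdx on whether mdx replicate 2 is kept. Mt3 in WT rests on 38 to 56 reads, and Mt4 in WT and mdx on none or 2. Genotype is confounded with whatever else differed between the libraries; the uniquely mapped share (80.94 to 85.83% in WT, 86.58 to 88.62% in mdxTG) and the scaling factors moved with genotype, and their part in the results was not tested.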
